A study of Anopheles gambiae with 8 samples.

Results

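A set of 66 nuclear genes stood far higher in replicate 1 than in replicates 2, 3 and 4 of an *An. gambiae* cell culture experiment, both in cells given 20-hydroxyecdysone (20E) and in the ethyl alcohol (EtOH) controls. The genes were selected on measured values. Counts were scaled to CPM, the usual depth-scaled read unit, by each library's nuclear counts, and the 6950 of 13763 listed genes with a mean of at least 5 CPM over the 8 libraries were considered. A member had a CPM plus 0.5 in replicate 1 of at least 3 times the highest of the other replicates, in the 20E libraries and again in the EtOH libraries. Collagen IV (AGAP009200) met both thresholds and was left out of the set. The contrast of replicate 1 with the others is therefore a description with no test, whereas the contrast of 20E with EtOH was no criterion. The rule still tied the 20E change of pair 1 to that of the other pairs, because each group had its own threshold, and the fit without replicate 1 is given for that reason.

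Sua 4.0, an established mosquito cell line with hemocyte-like features, was treated with 20E or with EtOH alone for 24 h. Each group had 4 libraries, which the paper calls independent biological replicates. The labels give 10% ethanol for both groups, while the study's methods describe undiluted ethanol as the solvent. All libraries came from this 1 line, so the data describe cultured cells and no tissue. The replicate number is the only mark of an experiment in the labels, which give no date, passage or cell density. A 20E and an EtOH library of the same number are taken here as 1 experiment, because their levels varied together. Neither the labels nor the paper states this. Whatever set replicate 1 apart cannot be told apart from the other features of that experiment.

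20E is the active form of the insect molting hormone ecdysone, and female mosquitoes also make it after a blood meal. It binds a nuclear receptor pair, which first switches on early regulators such as E75, broad and the hormone receptors HR3 and HR4. The RNA content of a cell line depends on its culture history as well as on such treatments, because density, passage and medium differ between independent cultures.

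Sequencing depth differed between the libraries. The 20E libraries held 6865599 to 14878014 counts and the EtOH libraries 7761718 to 13566683, and the lowest total of each group was that of replicate 1. Mitochondrial genes took 18.9% of counts in 20E replicate 1 against 7.11 to 13% in 20E replicates 2 to 4, and 21.2% in EtOH replicate 1 against 11 to 16% in EtOH replicates 2 to 4. The number of nuclear genes with a count was 9926 to 10438 in 20E libraries and 9924 to 10154 in EtOH libraries. Mitochondrial share and depth thus moved with replicate 1 as the members did, and their part in the members' levels was not tested.

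Among marker genes looked up by identifier, those listed for fat body were high in replicate 1 of both groups, and most listed for hemocytes were not. The exception was 1 hemocyte gene, AGAP004980, at a low level. It had 2.69, 0.263, 0.434 and 0.347 CPM in 20E libraries, against 7.03, 0.241, 0.248 and 0.479 CPM in EtOH libraries. Of 9 genes listed as hemocyte markers, 6 stayed under 10 CPM in every library, and 1 of these was at 0 in all 8. Their summed level was 365 CPM in 20E replicate 1 and 839 to 1561 CPM in 20E replicates 2 to 4, against 529 CPM in EtOH replicate 1 and 258 to 460 CPM in EtOH replicates 2 to 4. Most of it came from AGAP004981 (248, 633, 986 and 919 CPM in 20E libraries) and PPO3 (AGAP004975, with 108, 185, 357 and 565 CPM there). PPO3 and PPO8 (AGAP004976) of this list are also on the paper's list of genes raised by 20E. The hemocyte sum is therefore no measure of cell type alone. Both genes listed as fat body markers were highest in replicate 1 of both groups, at a sum of 5744 CPM in 20E replicate 1 and 2558 to 2853 CPM in 20E replicates 2 to 4, against 3108 CPM in EtOH replicate 1 and 1111 to 1664 CPM in EtOH replicates 2 to 4. Neither is a member, and their part in the members' levels was not tested. In bulk RNA, a change in the number of cells of a type and a change in RNA per cell cannot be told apart.

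The members' share of the transcriptome shows how far apart replicate 1 stood. Their summed level was 17433, 2360, 2056 and 2450 CPM in 20E replicates 1 to 4, against 17228, 2323, 2004 and 1724 CPM in EtOH replicates 1 to 4. As a share of nuclear counts this was 1.74% in 20E replicate 1 and 0.206 to 0.245% in the other 20E libraries, and 1.72% in EtOH replicate 1 and 0.172 to 0.232% in the other EtOH libraries. The most abundant member, AGAP029054, made up much of the sum, and without it the members still summed to 11232 CPM in 20E replicate 1 and 957.9 to 1328 CPM in the other 20E libraries, against 9557 CPM in EtOH replicate 1 and 746.3 to 1135 CPM in the other EtOH libraries. The median member stood at 67.7 CPM in 20E replicate 1 and 2.68 to 4.86 CPM in 20E replicates 2 to 4, against 77.5 CPM in EtOH replicate 1 and 3.39 to 5.41 CPM in EtOH replicates 2 to 4. The sums of replicate 1 were thus close to each other with and without 20E.

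**Figure D1:**
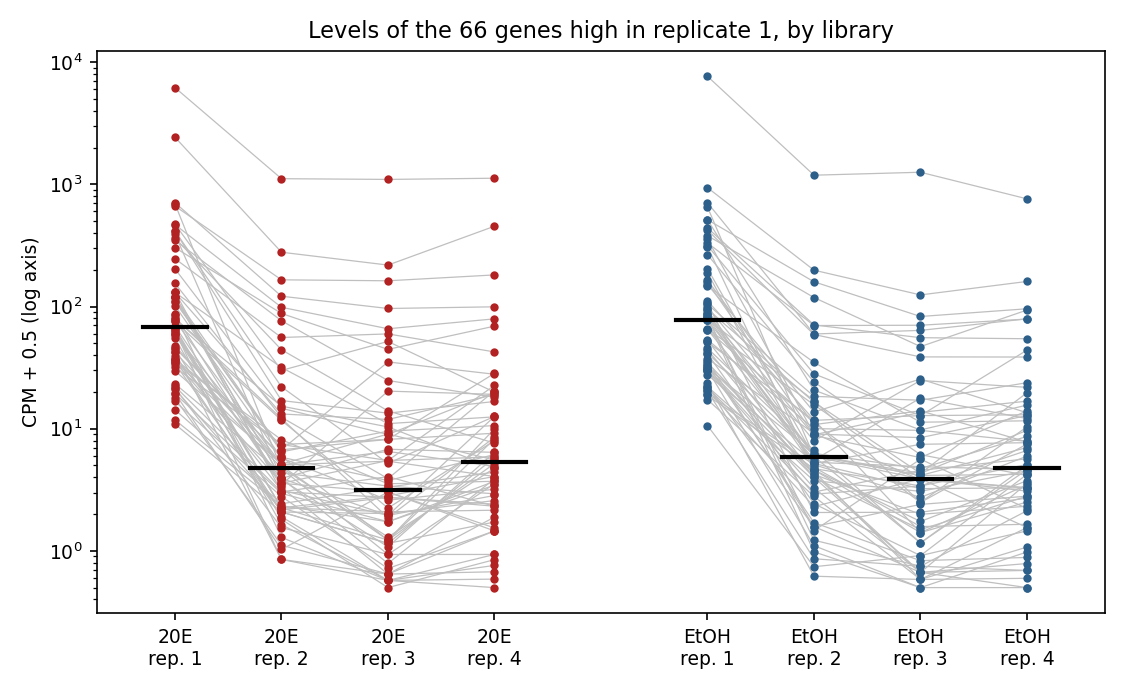
Level of each of the 66 members in each library, as CPM plus 0.5 on a log axis. Each point is a gene, grey lines join a gene across the replicates of a group, and black bars mark the median, which lies at 67.7 and 77.5 CPM in replicate 1 of 20E and EtOH (drawn with the 0.5 added) and at 5.41 CPM or less in every other library.

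Replicate 1 exceeded the highest other replicate by 3.11 to 147 times in the 20E libraries, with a median of 7.58 times, and by 3.22 to 110 times in the EtOH libraries, with a median of 7.31 times. The smaller of the 2 ratios was at least 5 in 39 members, at least 10 in 18 and at least 20 in 9. The members' mean CPM over all libraries had a median of 21.8, against 47.2 for all genes considered. These means include the replicate 1 libraries that the rule selected on, and the median member stood at 2.68 to 5.41 CPM in the others. Many members passed the filter of 5 CPM only through replicate 1, for example AGAP002460, with at most 0.788 CPM in any other library. Their number was not computed, and shares over all genes considered are not matched for this. Of the 66, 14 averaged under 10 CPM and 11 over 100 CPM. Among the other replicates, replicate 3 was most often the lowest, in 42 members in 20E libraries and 39 in EtOH libraries, and in both groups for 32. The share over all genes considered was not computed, so this order is only a description of the members.

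None of the 66 members appears among the 128 genes that the paper lists as regulated by 20E, of which 119 were among the 6950 considered. Collagen IV is on that list and had been left out of the set, so the 0 holds partly by construction. With 119 of 6950 genes listed, few members would be on the list in any case. The paper states no block, and without one the members' median standard error was 1.22, against 0.26 over all genes tested. The rule thus made listed members unlikely, and the 0 is only a description. No source used here pairs a member with a gene name. Lists for chaperones, cell cycle, glycolysis, hypoxia, endoplasmic reticulum stress, amino acid starvation, immunity and transport could therefore not be applied to the members, the 2 identifiers of the matrix list were not members (1 of them is collagen IV), and the state of the culture is described only by identifiers, levels and positions on the AgamP4 assembly.

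The most abundant member, AGAP029054 (3R:42459197-42460659, + strand), stood at 6201, 1113, 1098 and 1123 CPM in 20E replicates 1 to 4, against 7671, 1189, 1257 and 761 CPM in EtOH replicates 1 to 4. It was high in both replicate 1 libraries and nearly level in the other 20E libraries. AGAP009554 (3R:36050238-36123272, - strand), whose span overlaps 1 other gene, had 665, 165, 162 and 181 CPM in 20E libraries, against 940, 198, 124 and 160 CPM in EtOH libraries. AGAP009770 (3R:42687330-42693463, - strand) had a steeper contrast, with 416, 21.5, 4.7 and 12.1 CPM in 20E libraries, against 513, 20.2, 9.27 and 15.1 CPM in EtOH libraries. AGAP011334 (3L:21299916-21353050, - strand) had 414, 16.5, 12.9 and 16.2 CPM in 20E libraries, against 357, 8.54, 7.95 and 12.3 CPM in EtOH libraries. In each of these 4 genes the 2 libraries of replicate 1 lay above all 6 others.

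Some members were close to absent outside replicate 1. AGAP002460 (2R:21674481-21675692, + strand) had 483, 9, 1 and 0 counts in 20E replicates 1 to 4, against 473, 4, 0 and 0 counts in EtOH replicates 1 to 4. AGAP000853 (X:15745790-15749906, - strand) had 352, 4, 1 and 5 counts in 20E libraries, against 498, 6, 3 and 2 counts in EtOH libraries. AGAP009769 (3R:42672868-42676810, - strand) had 304, 13, 1 and 1 counts in 20E libraries, against 268, 29, 2 and 0 counts in EtOH libraries. These genes had 268 to 498 counts in the 2 shallowest libraries and at most 29 in any deeper one. In all, 4 members had a count of 0 in at least 1 library of replicates 2 to 4, where 3 counts is taken as the floor of detection. AGAP028522 (3L:25001366-25012024, - strand), with 120, 3.42, 1.45 and 2.34 CPM in 20E libraries and 106, 1.56, 1.57 and 2.2 CPM in EtOH libraries, was low but counted throughout.

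Members lay on every nuclear arm listed, with 20 on 2R (30.3%, against 30.2% of the genes considered), 17 on 3R (25.8% against 20.1%), 12 on 3L (18.2% against 16.4%), 7 on X (10.6% against 9.29%), 5 on 2L (7.58% against 22%) and 5 on unplaced sequence (7.58% against 2.09%). Their gene spans had a median of 2505 bases, against 2433 for the genes considered, and ran from 408 to 90448 bases. The spans of 9 members overlap another gene, and their counts are less certain because the strand setting of the counting is not given in the sources used here.

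In all, 11 members lay within 3 genes of another member, in 5 groups. How often other sets of genes lie that close was not computed. AGAP028028, AGAP028015 and AGAP028064 follow each other on the + strand near one end of 3R, from base 317335 to base 324846, with 838 and 585 bases between them. AGAP028028 had 693, 4.21, 0.434 and 3.04 CPM in 20E libraries, against 652, 5.41, 0.662 and 4.5 CPM in EtOH libraries, which were the highest ratios of the set. AGAP028064 had 392, 3.42, 0.289 and 3.39 CPM in 20E libraries, against 308, 4.09, 0.911 and 2.01 CPM in EtOH libraries. AGAP028015 between them had 42, 0.35, 0.145 and 0.174 CPM in 20E libraries, against 35.6, 1.08, 0.166 and 0.191 CPM in EtOH libraries. AGAP028028 and AGAP028064 were both lowest in replicate 3 of each group, while AGAP028015 had too few counts outside replicate 1 to rank the libraries.

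The other neighbours were pairs. AGAP012073 and AGAP012074 lie 138 bases apart on the - strand of 3L (3L:37403094-37404024 and 3L:37404163-37405228). AGAP012073 had 111, 5.96, 9.04 and 10.1 CPM in 20E libraries, against 88.6, 4.69, 6.95 and 7.18 CPM in EtOH libraries, and AGAP012074 followed with 76, 4.56, 6.01 and 4.43 CPM in 20E libraries, against 77, 5.54, 3.64 and 6.51 CPM in EtOH libraries. AGAP004449 (2R:56344316-56345640) and AGAP004450 (2R:56347496-56374324) lie 1855 bases apart on opposite strands. AGAP006769 (2L:38064405-38069624) and AGAP006771 (2L:38076293-38091235) are 6668 bases apart with 1 gene between them, and AGAP009769 and AGAP009770 are 10519 bases apart. Neighbours thus shared the high replicate by the rule that chose them. Reads that run from a gene into the next one were not examined.

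**Figure D2:**
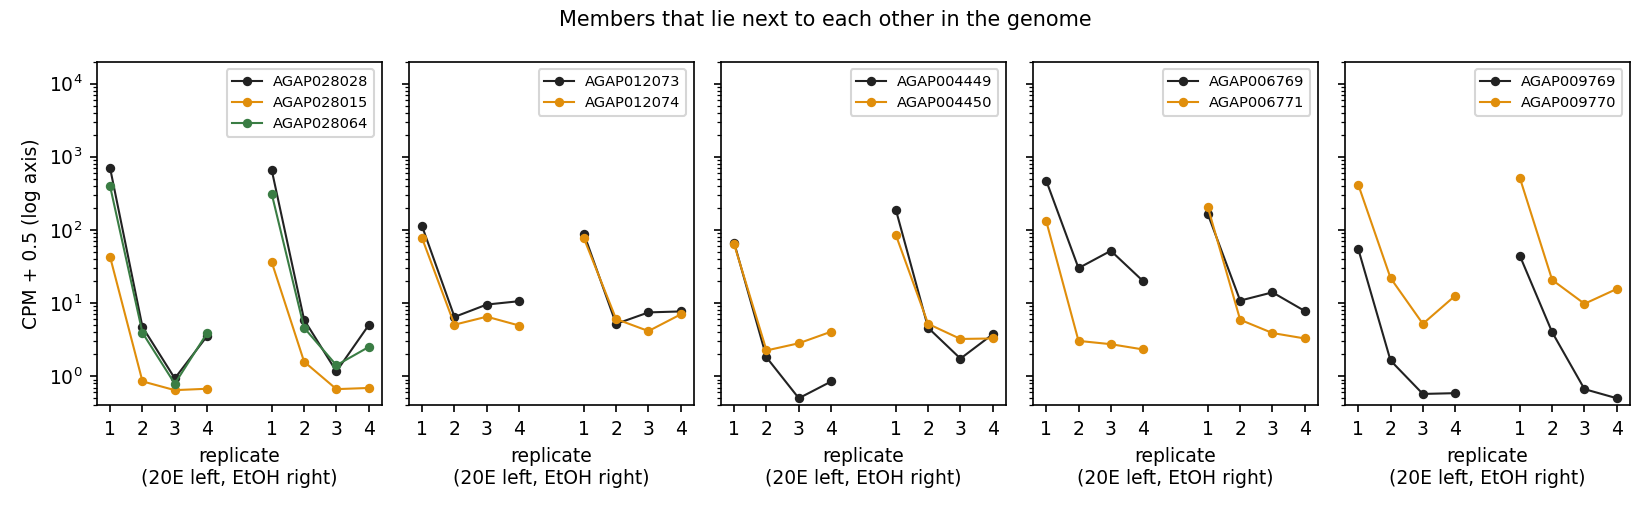
Levels of the 11 neighbouring members in 5 panels, as CPM plus 0.5 on a log axis against the replicate number, 20E libraries on the left of each panel and EtOH libraries on the right. Each line is a gene, and in every panel replicate 1 is the highest point of each line in both groups, up to 693 CPM for AGAP028028.

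At the edge of the rule, AGAP008732 and AGAP009437 were just inside, each with a smaller ratio of 3.11, and AGAP004198 and AGAP009191 were just outside, with smaller ratios of 2.92 and 2.91. AGAP008732 (3R:16187006-16194150, - strand) had 109, 6.22, 34.7 and 27.4 CPM in 20E libraries, against 86, 7.46, 24.3 and 21.3 CPM in EtOH libraries. AGAP009437 (3R:33487582-33488632, + strand) had 38.6, 2.63, 1.45 and 12.1 CPM in 20E libraries, against 63.9, 10.7, 1.99 and 6.99 CPM in EtOH libraries. These genes varied among the other replicates as well.

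Replicate 1 stood apart more than the other replicates did. The same rule applied to replicates 2, 3 and 4 found 9, 2 and 4 genes. A mirrored rule, with replicate 1 at most one part in 3 of the lowest other replicate, found 99 genes, against 6, 14 and 10 for replicates 2, 3 and 4. These 99 genes summed to 829.4 CPM in 20E replicate 1 and 9199 to 11808 CPM in 20E replicates 2 to 4, against 796.7 CPM in EtOH replicate 1 and 9128 to 11826 CPM in EtOH replicates 2 to 4. Without any fold threshold, replicate 1 was the highest in both groups in 17.8% of the genes considered and the lowest in both in 22.1%. The difference between replicate 1 and the rest therefore ran in both directions.

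**Figure D3:**
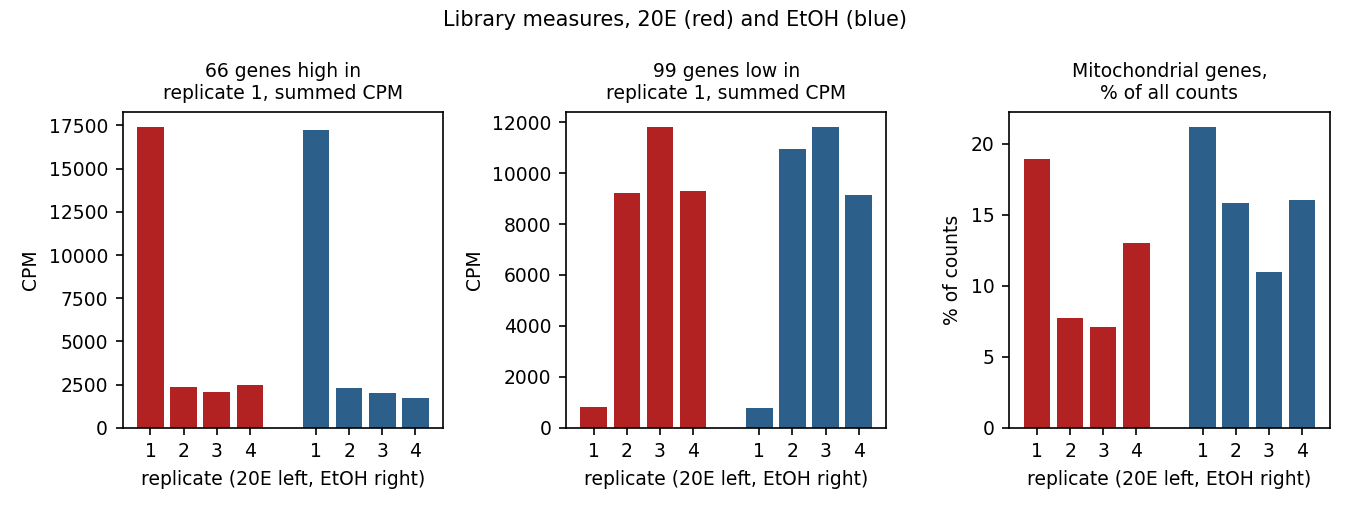
Bars give, for each library, the summed CPM of the 66 members (left), the summed CPM of the 99 genes chosen by the mirrored rule (middle) and the percent of all counts on mitochondrial genes (right), with 20E libraries in red on the left and EtOH libraries in blue on the right. Members sum to 17433 CPM in 20E replicate 1 and 17228 CPM in EtOH replicate 1, and to 2450 CPM or less elsewhere, and the mitochondrial share is highest in replicate 1 of each group.

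Whether 20E still moved the members was asked with edgeR's quasi-likelihood test over all genes that passed its expression filter, with a gene called at an adjusted p of at most 0.1. Of the 66 members, 62 passed the filter, and AGAP000853, AGAP002460, AGAP004161 and AGAP028015 did not. With treatment as the only term, 0 of the 62 were called, and their adjusted p by edgeR ran from 0.731 to 0.999. Over all 8180 genes the same fit called 65, or 0.795%, with 0.513% raised and 0.281% lowered by 20E. Unadjusted, 1 member and 557 of all genes passed a p of 0.05. Both DESeq2 and limma-voom called 0 members, but DESeq2 gave some of them, such as AGAP006769, no adjusted p. The edgeR fit with treatment only counts the distance of replicate 1 from the others as error. Its median standard error of a member's log2 fold change was 1.22, against 0.26 over all genes tested. The 20E and EtOH libraries overlapped in every member. The rule made this likely, because replicate 1 had to exceed the others at least 3 times in both groups. The share over all genes was not computed.

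Libraries of the same number were taken as 1 experiment, so the comparison was also made within experiments, with the replicate number as a block. In that fit edgeR called 27 of the 62 members (43.5%), 12 higher after 20E (19.4%) and 15 lower (24.2%). Over all 8180 genes it called 1427, or 17.4%, with 8.34% higher and 9.11% lower. The 99 genes low in replicate 1 had a similar share, with 41 called (41.4%). The mitochondrial share of counts was lower in the 20E library of each pair, and with mitochondrial genes left out the fit with the block again called 27 members. The block lowered the members' median standard error to 0.24, against 0.13 over all genes. Members had a median absolute log2 fold change of 0.44, against 0.18 over all genes tested, while their median signed change was -0.08, against 0.01. They thus moved in both directions, and the set as a whole had no common direction.

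The called members moved alike in most experiments. For 25 of the 27 the 20E library lay on the same side of the EtOH library in all 4 pairs, in 11 of 12 higher members and 14 of 15 lower ones. AGAP005552 and AGAP000964 were the exceptions, with pair 3 and pair 2 on the other side. These counts are a description, because a fit with the block favors genes whose pairs agree, and the rule tied pair 1 to the others. The share over all genes called in that fit was not computed. Log2 fold changes of the 12 higher members ran from 0.47 to 2.51, with a median of 1.29 and 8 of at least 1. Those of the 15 lower members ran from -0.37 to -2.0, with a median of -1.03 and 8 of at most -1 before rounding. The 35 members that were not called lay between -0.77 and 0.65.

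Among members higher after 20E, AGAP001669 (2R:7656373-7657277, + strand) changed most. It had 708, 121, 95.9 and 99 CPM in 20E replicates 1 to 4, against 147, 34.4, 10.8 and 11.1 CPM in EtOH replicates 1 to 4. Replicate 1 was high in both groups, and 20E exceeded EtOH in every pair. The log2 fold change in the edgeR fit with the block was 2.51 (SE 0.19, adjusted p = 5.51e-05), against 2.34 with an adjusted p of 0.731 without it.

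AGAP000278 (X:5035248-5036100, - strand) had 2432, 278, 218 and 454 CPM in 20E libraries, against 707, 59.1, 63.3 and 78.8 CPM in EtOH libraries, with a log2 fold change of 2.03 (SE 0.14, adjusted p = 3.08e-05 by edgeR with the block). Its lowest 20E library was below the EtOH library of replicate 1, so that the groups overlapped although each pair differed. AGAP006769, the neighbour of AGAP006771, had 472, 29.5, 51.3 and 19.4 CPM in 20E libraries, against 164, 10.3, 13.5 and 7.28 CPM in EtOH libraries. Its pair log2 ratios of 1.52, 1.47, 1.89 and 1.36 were the most even of the strongly raised members named here, and the log2 fold change with the block was 1.56 (SE 0.10, edgeR adjusted p = 1.85e-05).

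AGAP000057 (X:921077-922938, - strand) had 35.7, 4.29, 0.796 and 4.25 CPM in 20E libraries, against 10.1, 0.241, 0.414 and 0.957 CPM in EtOH libraries. Its log2 fold change was 2.06 (SE 0.37, edgeR adjusted p = 0.00573 with the block), and counts were low, 62, 2, 5 and 10 in EtOH libraries. AGAP000238 (X:4494266-4496105, - strand) had 58.7, 4.47, 0.724 and 7.73 CPM in 20E libraries, against 16.8, 2.29, 0.0828 and 1.05 CPM in EtOH libraries, with a log2 fold change of 1.87 (SE 0.29, edgeR adjusted p = 0.00272 with the block). AGAP010056 (3R:48468803-48473896, + strand) had 363, 43.8, 13.5 and 7.12 CPM in 20E libraries, against 265, 23.6, 5.63 and 3.64 CPM in EtOH libraries. It also varied widely among replicates 2, 3 and 4 of both groups, and the smaller 20E change of 0.79 (SE 0.12, edgeR adjusted p = 0.0028 with the block) lay within that spread unless libraries were compared within an experiment.

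The remaining higher members were AGAP002327, AGAP002429, AGAP012577, AGAP010645, AGAP011334 and AGAP005552, with log2 fold changes of 1.38, 1.19, 0.73, 0.67, 0.47 and 1.0 in the fit with the block. AGAP005552 had pair log2 ratios of 1.97, 1.21, -0.29 and 0.42, and was higher mainly in pairs 1 and 2. AGAP002327 rested on low levels outside replicate 1, at most 1.58 CPM in 20E and 0.12 CPM in EtOH libraries.

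Among members lower after 20E, AGAP012571, on unplaced sequence (17080322-17081294, - strand), had 34.8, 7.62, 3.04 and 3.21 CPM in 20E libraries, against 104, 17.9, 16.6 and 23.3 CPM in EtOH libraries. Its log2 fold change was -2.0 (SE 0.26, edgeR adjusted p = 9.39e-04 with the block). AGAP013060 (2R:33369197-33370132, + strand) had 130, 31.2, 10.5 and 12 CPM in 20E libraries, against 332, 69.4, 69.8 and 78.5 CPM in EtOH libraries, with a log2 fold change of -1.98 (SE 0.28, edgeR adjusted p = 0.00159 with the block). Both genes fell less in pairs 1 and 2 than in pairs 3 and 4, with ratios of -1.56, -1.18, -2.27 and -2.68 for AGAP012571 and -1.35, -1.14, -2.68 and -2.66 for AGAP013060.

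AGAP004449 had 65.9, 1.31, 0 and 0.347 CPM in 20E libraries, against 189, 4.09, 1.24 and 3.25 CPM in EtOH libraries, with a log2 fold change of -1.88 (SE 0.31, edgeR adjusted p = 0.00426 with the block). Its neighbour AGAP004450 had 62.8, 1.75, 2.32 and 3.56 CPM in 20E libraries, against 85, 4.69, 2.73 and 2.78 CPM in EtOH libraries, and was not called, with a log2 fold change of -0.45. Whether the changes of the neighbours differ was not tested. AGAP006771, lower after 20E where its neighbour AGAP006769 was higher, had 132, 2.54, 2.24 and 1.82 CPM in 20E libraries, against 204, 5.41, 3.39 and 2.78 CPM in EtOH libraries, and changed by -0.74 in log2 (SE 0.13, edgeR adjusted p = 0.00678 with the block).

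AGAP003767 (2R:43119556-43124415, + strand) had 130, 12.7, 11.4 and 18.5 CPM in 20E libraries, against 315, 27.6, 12.3 and 43.5 CPM in EtOH libraries, with a log2 fold change of -1.03 (SE 0.16, edgeR adjusted p = 0.00265 with the block). Pair 3 hardly differed, at a log2 ratio of -0.11. AGAP011749 (3L:32886016-32888673, - strand) had 29.3, 4.64, 8.54 and 5.04 CPM in 20E libraries, against 50.7, 11.2, 12.3 and 12.5 CPM in EtOH libraries, with a log2 fold change of -1.0 (SE 0.17, edgeR adjusted p = 0.00463 with the block). AGAP013036 (2R:14545715-14546833, - strand) had 19, 0.526, 2.53 and 1.04 CPM in 20E libraries, against 80.8, 0.963, 5.13 and 1.72 CPM in EtOH libraries. Most of its difference lay in replicate 1, with a pair log2 ratio of -2.06 there and -0.51, -0.89 and -0.53 in the others.

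The other lower members were AGAP011051, AGAP013511, AGAP003730, AGAP004531, AGAP012404, AGAP000964, AGAP003896 and AGAP001775, with log2 fold changes of -1.42, -1.28, -1.17, -0.90, -0.84, -0.77, -0.41 and -0.37 in the fit with the block. AGAP011051 (3L:15778640-15779878, + strand) had 11.3, 1.84, 1.23 and 2.95 CPM in 20E libraries, against 41.2, 5.54, 3.64 and 3.73 CPM in EtOH libraries, and pair 4 differed least, at -0.29. AGAP003730 (2R:42637931-42641134, + strand) was lower in every pair, at -0.98, -0.54, -1.17 and -1.13, with 18 to 54 counts outside replicate 1. AGAP013511, by contrast, changed little in replicate 1, at -0.32, and by -1.81, -1.91 and -1.08 in the other pairs, with 120, 3.42, 6.29 and 5.9 CPM in 20E libraries, against 151, 13.2, 25 and 13 CPM in EtOH libraries. AGAP001775 was the smallest called change, with 303, 87.3, 44.1 and 68.6 CPM in 20E libraries, against 380, 118, 46.5 and 93.1 CPM in EtOH libraries. Of the called members, AGAP002327, AGAP003896, AGAP004531, AGAP005552, AGAP012404 and AGAP013511 overlap another gene.

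**Figure D4:**
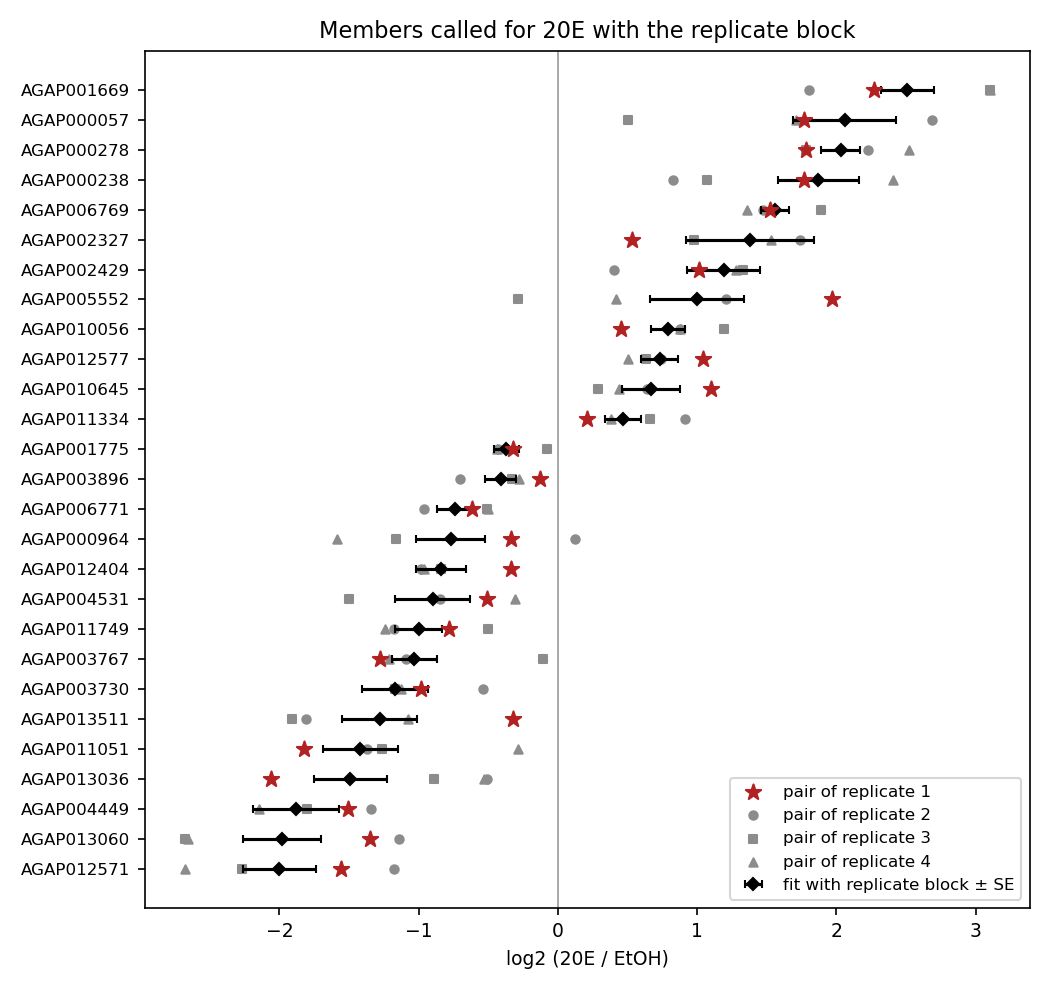
Log2 ratio of 20E over EtOH for the 27 members called with the replicate block, from AGAP001669 at the top (2.51) to AGAP012571 at the bottom (-2.0). Black diamonds are the fitted log2 fold changes with bars of 1 standard error, red stars are the pair of replicate 1 and grey symbols the pairs of replicates 2, 3 and 4, from CPM plus 0.5. In 25 of the 27 all 4 pairs lie on 1 side of 0, which a call in the fit with the block favors.

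Replicate 1, whose high levels defined the members, did not carry the 20E result alone. With both its libraries left out, 58 members passed the expression filter, and the fit with the block called 22 of them (37.9%), 8 higher and 14 lower. That fit called 15.9% of 8192 genes in all, 7.17% higher and 8.76% lower. It shared 21 members with the fit of all 4 pairs, all 21 in the same direction. AGAP002859 was gained, at a log2 fold change of -1.17 (edgeR adjusted p = 0.0596) without replicate 1 and -0.77 (adjusted p = 0.103) with it. The 6 members lost were AGAP002327, which did not pass the filter, AGAP013036 (edgeR adjusted p = 0.142), AGAP006771 (0.135), AGAP002429 (0.115), AGAP010645 (0.377) and AGAP005552 (0.437).

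In the pair of replicate 1, the 8 members called higher in replicates 2 to 4 had a median log2 ratio of 1.65, with a median fitted change of 1.75 in the other pairs, and the 14 called lower had medians of -0.65 in pair 1 and -1.13 in the others. These values are a description. The rule asked for replicate 1 to exceed replicates 2 to 4 within each group, so that a member with a 20E change in replicates 2 to 4 had limits on its replicate 1 libraries that were offset the same way, and the sign in pair 1 is no independent support.

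**Figure D5:**
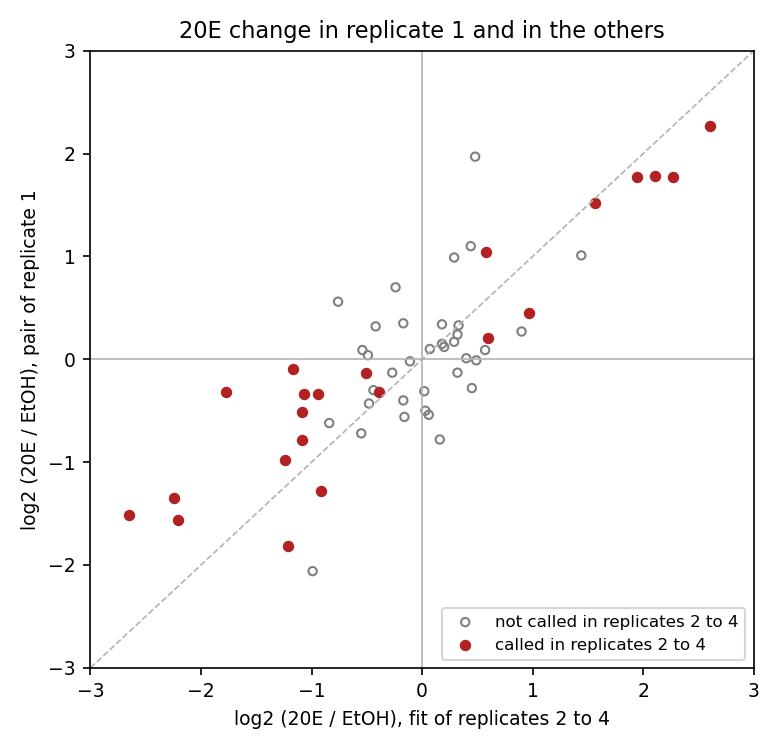
Each point is 1 of the 58 members that passed the filter without replicate 1, by the log2 fold change of 20E over EtOH fitted to replicates 2 to 4 (horizontal) and the log2 ratio of the pair of replicate 1 (vertical). Filled points are the 22 members called in replicates 2 to 4, with median vertical values of 1.65 for the 8 higher and -0.65 for the 14 lower ones, and open points were not called. The dashed line marks equal values, and the rule that chose the members used the replicate 1 libraries plotted on the vertical axis.

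By count of pairs, 20E was higher than EtOH in all 4 pairs in 13 members (19.7%, against 21.5% of the genes considered) and in none in 15 (22.7%, against 13.7%). The members' median log2 ratio was 0.00, -0.26, -0.07 and 0.11 in pairs 1 to 4, against 0.00, -0.02, 0.15 and 0.10 for all genes considered. A change of at least 1 in log2 was seen upward in 9, 8, 7 and 11 members and downward in 6, 14, 9 and 9 members in pairs 1 to 4. Pair 1 had the fewest downward changes of this size and lay within the range of the other pairs upward.

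Several of the most abundant or steepest members were not called for 20E. AGAP029054 had a log2 fold change of -0.06 (SE 0.14, edgeR adjusted p = 0.829 with the block), AGAP028028 of -0.20 (SE 0.16, adjusted p = 0.487), AGAP028064 of 0.18 (SE 0.21, adjusted p = 0.644) and AGAP009770 of -0.37 (SE 0.16, adjusted p = 0.168). AGAP008822 (3R:18540559-18561664, + strand), with 246, 55.3, 59.2 and 42 CPM in 20E libraries and 422, 58.5, 38.2 and 38.1 CPM in EtOH libraries, went down in pair 1 (-0.78) and not in pair 3 (0.63). A p above the threshold does not show that these genes did not respond, and for AGAP028028 and AGAP028064 the counts outside replicate 1 ranged from 4 to 48.

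Within 3 genes of a gene on the paper's list of 20E-regulated genes lay 5 members. How many of all genes lie that close was not computed, so this number describes positions and is no result about the members. AGAP013060 is 2002 bases from apolipophorin III (AGAP013365), a lipid transport protein, which had 184, 151, 55.8 and 71.1 CPM in 20E libraries, against 1672, 680, 556 and 658 CPM in EtOH libraries. Both genes were lower after 20E in every pair, and apolipophorin III was not high in replicate 1 by the rule. AGAP000238 is 8006 bases from allantoinase (AGAP000239), an enzyme of purine breakdown, which had 35.7, 0.964, 0.434 and 12.2 CPM in 20E libraries, against 0.491, 0.842, 0.331 and 0.287 CPM in EtOH libraries. Allantoinase had pair log2 ratios of 5.19, 0.12, 0.17 and 4.01, and AGAP000238 of 1.77, 0.83, 1.07 and 2.41. The pairs of AGAP000238 cannot be ranked from these values. In pair 3 it had 10 counts after 20E and 1 in EtOH, where the added 0.5 CPM lowers the ratio. For allantoinase, pair 2 rested on 11 counts after 20E and 7 in EtOH, and pair 3 on 6 and 4. The other 3 members near such genes were not called for 20E with the block. AGAP007027 (-0.13, -1.04, 0.88 and -0.12 in pairs 1 to 4) was not called, while a glucosyl/glucuronosyl transferase gene near it, AGAP007029, had -2.59, -2.70, -1.85 and -1.84. AGAP009554 had -0.50, -0.26, 0.38 and 0.18 and was not called, while the sulfotransferase gene AGAP009551 had 2.09, 4.07, 3.76 and 3.10. AGAP007849 (0.24, 0.24, 0.79 and 0.09) was not called, while AGAP007847, a dual specificity tyrosine-phosphorylation-regulated kinase gene, had 1.42, 1.25, 1.56 and 1.11. AGAP003151, also near AGAP013060, had -0.34, -1.11, -1.33 and -0.90, and Thymosin (AGAP000235), also near AGAP000238, had 0.58, 1.14, 1.62 and 1.24.

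The early genes of the ecdysone response, 7 genes named in the paper, are not members. HR4 (AGAP004693) had 165, 134, 117 and 167 CPM in 20E libraries, against 0.327, 0.361, 0.0828 and 0.287 CPM in EtOH libraries, with replicate 1 in the range of the others. E75A (AGAP012223) was highest in replicate 1 in EtOH and lowest there after 20E. It had 85.1, 147, 130 and 161 CPM in 20E libraries, against 25, 10.5, 4.31 and 6.61 CPM in EtOH libraries. The broad genes AGAP002165 (23.3, 47.8, 44.6 and 29.1 CPM) and AGAP002163 (7, 14.5, 17 and 16.8 CPM) were also lowest in replicate 1 after 20E. HR3 lay between the others there, and E75B and AGAP002164 were highest, at 3.05 and 6.64 CPM. Prophenoloxidase 8 (AGAP004976), of the melanization pathway, had 3.59, 15.1, 26.8 and 64.9 CPM in 20E libraries, against 1.31, 1.32, 0.993 and 0.479 CPM in EtOH libraries, and was thus lowest in replicate 1 after 20E. Of the 119 genes on the paper's list that reached 5 CPM, replicate 1 was highest in both groups in 19 and lowest in both in 17.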

How the data were processed

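RNA of Sua 4.0 cells was sequenced by the authors, 4 libraries after 20E and 4 after EtOH. Per the labels and the paper, the authors mapped reads with STAR 2.5.2b to AgamP4 and counted them per gene with featureCounts, whose strand setting is not given in the sources used here. They deposited whole-number counts for 13763 genes without normalization, and the listed length of 13763 genes is the full genomic span, with introns.

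Counts were tested as deposited with edgeR 4.0.16 in R 4.3.3 (quasi-likelihood F test, TMM, filterByExpr with minimum count 10 and minimum total 15, Benjamini-Hochberg over all genes tested, called at 0.1). Standard errors were derived from the F statistic of the fit and the size of the log2 change. The fit reported first had treatment only, because the study states no block. Replicate numbers were taken to mark independent experiments, which the sources do not state. Deviations from the group means correlated at 0.646 to 0.835 between libraries of the same number and at most at 0.0854 between others (8180 genes). Deviations within a group sum to 0, so high values for the same number lower the others. The numbers were used on this basis to pair the libraries. Libraries were not copies of each other (chi-square per degree of freedom of at least 65.3). Depth was 6865599 to 14878014 counts, without molecular identifiers.

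CPM values are counts scaled by the sum of nuclear counts, and pair ratios are log2 ratios of CPM plus 0.5. Members and lists were chosen with earlier results of these data known. Named genes are the 12 members of highest mean CPM, the 10 of largest smaller ratio, the 10 of smallest p in the fit without and in the fit with the block, the 2 on each side of the threshold, and members within 3 genes of another member. Other called members, AGAP004161, AGAP002859, AGAP007027 and AGAP007849 were named after their values were seen. Marker lists could be applied by identifier only, and their hemocyte, fat body and germ line genes were not members. The 1 germ line gene had 143 to 218 CPM in 20E and 103 to 212 CPM in EtOH libraries. Alternatives were DESeq2 1.42.0, limma-voom (limma 3.58.1), RLE factors, other filters and thresholds, leaving out libraries, and leaving out mitochondrial genes. The fits were also run on simulated counts, with replicate effects and dispersions taken from the fit with the block. That run is not used here as support for the calls.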

Additional observations from a re-analysis of the deposited data

Results flagged for a closer look

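AGAP003767, a member lower after 20E, had pair log2 ratios of 20E over EtOH of -1.28, -1.09, -0.11 and -1.21 in replicates 1 to 4. The value of pair 3, -0.11, lay further from the other pairs than Dixon's limit for 4 values allows. Chance alone gives such a value in about 1 of 20 sets, and 21 sets of 4 were examined.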

How the results depend on the processing

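The count of members called for 20E depended on the replicate block. It was 0 with treatment only, and also with DESeq2, limma-voom, RLE factors, a filter of 1 CPM in 4 libraries, no filter on expression, mitochondrial genes left out, an adjusted p of at most 0.05 and each library left out in turn (0 to 0). It was 27 with the replicate block and 28 with the block in DESeq2. Without the block, DESeq2 gave some members no adjusted p, so they could not be called there. The paired count was 22 to 25 with a replicate number left out, namely 22, 24, 22 and 25 without replicates 1, 2, 3 and 4, and without both libraries of replicate 1 but no block it was 4. With the block and no mitochondrial genes, a setting chosen after seeing the data, it was again 27.

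The set held 131 genes at a fold of 2 and 105 at a mean of 1 CPM or more. It had 52 at a fold of 4, 69 with TMM factors (64 of them members), 65 in thinned libraries, 67 to 76 with 1 of the other libraries left out, and 67 with collagen IV counted, which was also chosen after seeing the data. Without a block, leaving out 1 library of replicate 1 turned the sign of 7 of the 15 members refitted in this way. Across the libraries left out, log2 fold changes ran from -0.24 to 2.5 for AGAP005552, -0.22 to 4.03 for AGAP000238, -0.59 to 3.75 for AGAP006769 and -1.87 to 3.36 for AGAP010056 (low ends without 20E replicate 1), and from -4.02 to 1.02 for AGAP013036, -2.85 to 0.59 for AGAP003767 and -6.56 to 2.55 for AGAP004449 (high ends without EtOH replicate 1). Such a fit sets the remaining high library against low ones. The depth of replicate 1, the lowest, limits the members least, since they were highest there, while counts below 10 in the other replicates leave their changes imprecise. No sequence is printed for the members.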
